A study of Mus musculus with 12 samples.

Results

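Sphingosine 1-phosphate (S1P) is made, read and destroyed by a small set of proteins, and 5 of their genes are described here in splenic dendritic cells (DCs). They are the kinases Sphk1 and Sphk2, the receptors S1pr1 and S1pr4, and the lyase Sgpl1. Their values came from the 8 probe sets annotated to only 1 of these symbols, of 45101 probe sets on the array. All 5 genes were among the 15019 of 18194 genes that passed a filter on low intensities. The DCs came from alymphoplasia (aly) mice, whose mutation lies in Map3k14, the gene of the kinase NIK, and from heterozygous littermates, which are called wild type (WT) and so carry 1 copy of the aly allele. The mutation is carried by every cell of the animal. Mice were left untreated, or were injected with 25 micrograms of lipopolysaccharide (LPS) and 100 micrograms of an agonistic antibody against CD40, with DCs isolated 6 hours afterwards. Genotype and treatment thus gave 4 groups of 3 arrays. An array measured DCs of 3 mice that were pooled, selected with CD11c beads and sorted by flow cytometry. The sources used here do not give sex, age or strain background. The 5 genes were chosen by their pathway and by results of these arrays already known, the Sphk1 intensities after treatment among them, so their differences between groups are a description and carry no p. Their intervals, and the statement that a difference was called (passed the threshold of the fit over all genes), describe these arrays and are no test of the 5 genes.

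Sphingosine kinases phosphorylate sphingosine, a breakdown product of ceramide, to S1P. S1P leaves the cell through transporters and acts on G protein-coupled receptors of the S1pr family, which guide leukocytes along gradients between tissue, blood and lymph. Phosphatases turn S1P back into sphingosine, whereas the lyase in the endoplasmic reticulum splits it for good and so takes material out of the sphingolipid pool. In spleen and lymph nodes, S1pr1 is known for its part in the exit of lymphocytes, and S1pr4 is a receptor found mainly on blood and immune cells.

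The 250 bases upstream of annotated starts were read from a RefSeq promoter table (GRCm38.p6), which held 9 windows for 4 of the genes. S1pr1 was not among them. The table holds 5 windows for Sphk1, 2 for Sphk2 and 1 each for S1pr4 and Sgpl1. Sphk1, Sphk2 and Sgpl1 are shown because their arrays did not overlap in some comparison, and of their windows those that hold a match to the letters searched, leaving out start 3 of Sphk1, which overlaps start 2. Starts 4 and 5 of Sphk1, start 2 of Sphk2 and the S1pr4 window held no match. Capitals mark matches to the letters searched on both strands.

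Sphk1, start 1, chr11:116530850-116531099, plus strand: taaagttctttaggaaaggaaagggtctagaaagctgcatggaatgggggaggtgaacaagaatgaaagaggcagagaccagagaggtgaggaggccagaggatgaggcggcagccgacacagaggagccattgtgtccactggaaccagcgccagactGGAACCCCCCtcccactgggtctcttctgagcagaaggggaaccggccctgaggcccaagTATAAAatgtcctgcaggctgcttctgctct
Sphk1, start 2, chr11:116531587-116531836, plus strand: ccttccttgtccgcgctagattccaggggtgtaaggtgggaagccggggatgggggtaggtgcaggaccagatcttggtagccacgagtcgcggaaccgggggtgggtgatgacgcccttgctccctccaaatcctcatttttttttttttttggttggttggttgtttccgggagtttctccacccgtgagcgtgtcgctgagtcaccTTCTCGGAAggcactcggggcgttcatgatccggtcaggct
Sphk2, start 1, chr7:45715208-45715457, minus strand: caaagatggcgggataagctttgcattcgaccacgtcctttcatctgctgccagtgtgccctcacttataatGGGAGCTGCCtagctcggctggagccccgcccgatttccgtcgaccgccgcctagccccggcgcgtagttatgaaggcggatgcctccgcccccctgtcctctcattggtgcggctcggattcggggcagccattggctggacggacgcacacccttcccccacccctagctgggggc
Sgpl1, chr10:61147685-61147934, minus strand: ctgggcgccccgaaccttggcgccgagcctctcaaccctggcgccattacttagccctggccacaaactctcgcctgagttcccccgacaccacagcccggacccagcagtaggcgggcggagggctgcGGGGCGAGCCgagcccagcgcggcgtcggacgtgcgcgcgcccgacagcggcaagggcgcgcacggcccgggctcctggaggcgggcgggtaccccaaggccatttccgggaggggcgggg

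The letters GGGNNNNNCC, a relaxed form of the site that NF-kB dimers bind, matched once at start 1 of Sphk1 (GGAACCCCCC, minus strand, bases 91 to 82 before the start). They also matched in the Sphk2 window (GGGAGCTGCC, bases 178 to 169) and in the Sgpl1 window (GGGGCGAGCC, bases 121 to 112). These letters are common: 45.8% of 32851 mouse windows of this length held them. The letters TATAAA, those of a TATA box, stood 31 to 26 bases before start 1 of Sphk1 and are held by 12.4% of windows. TTCNNNGAA, the palindrome that STAT dimers bind, matched at start 2 of Sphk1 (TTCTCGGAA, bases 41 to 33) and is held by 7.02% of windows. The window of start 3 holds the same match. GAAANNGAAA, the letters of an interferon-stimulated response element (2.98% of windows), were in none of the 9 windows. The probe sets do not tell which start was used.

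The arrays were not alike in RNA quality, which touches the genotype comparisons below. Spike-in transcripts averaged 4.15 to 21.8 on the replicate 1 arrays of the 4 groups and 52.9 to 497 on replicates 2 and 3, a split that lies across all groups and that the labels do not name. The mean log2 ratio of 3' to 5' control probe sets of Actb and Gapdh was 1.57 ± 0.18 on WT arrays and 3.07 ± 1.31 on aly arrays (SD, n = 6 each). It was highest, at 5.66, on treated aly replicate 1, whose hybridisation controls (28529 against 2458 to 5768 elsewhere) and median intensity (53.4 against 21.5 to 39.1) also stood apart. The summed intensity of 9 of 9 DC markers ran from 24278 to 51334 over the arrays. H2-Ab1 and Cd74 made up most of it, with means of 14071 and 10493.3 in untreated WT DCs, so it says little of the others. With treatment in WT DCs Irf4 was called higher and Ciita lower. Between treated genotypes 1 of the 9 was called, Irf4, with means of 1235.87 in WT and 175.4 in aly DCs (limma adjusted p = 6.9e-04). Red pulp macrophage markers (7 of 7 measured) summed to 885 to 9828 in untreated WT and 27132 to 42122 in untreated aly DCs, and to 1647 to 13175 and 20016 to 59097 after treatment. In bulk RNA, fewer cells of a type and less RNA per cell cannot be told apart.

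Sphk1, the inducible cytosolic kinase, was low in untreated WT DCs, with intensities of 6.8, 1.2 and 23.8 on replicates 1 to 3 of its brighter probe set (1451596_a_at). In untreated aly DCs it read 41.3, 36.9 and 78.5. After LPS and anti-CD40 it read 3107.3, 1107 and 1424.7 in WT and 586, 409.7 and 344.7 in aly DCs. The arrays of the 4 groups did not overlap, in the order WT untreated, aly untreated, aly treated, WT treated. Thus at this probe set the genotype with the lower level before treatment had the higher level after it. The untreated WT values lay below the median intensities of their arrays (21.9, 22 and 25.1), so they are near the floor. The group means were 10.6 ± 11.8, 52.2 ± 22.9, 447 ± 125 and 1879.7 ± 1075 (SD, n = 3 each).

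On the log2(intensity + 16) scale the difference between treated and untreated was 6.10 ± 0.45 (SE) in WT DCs, a 68.7-fold difference with a 95% interval of 5.15 to 7.05. In aly DCs it was 2.78 ± 0.45, 6.86-fold, with an interval of 1.83 to 3.73. Both were called in the limma fit over all genes (at a Benjamini-Hochberg adjusted p under 0.05), and nothing is read from this, since these values took part in the choice. The untreated WT mean, and 2 of the 3 arrays behind it, lie below the added 16, so the size of the WT fold depends on this offset. With an offset of 1 the WT difference was 7.82 log2 units and still called, and the aly difference was no longer called. Sphk1 was the only 1 of the 5 genes called by treatment in either genotype, where 9.71% of all genes tested were called in WT (4.95% higher, 4.75% lower) and 0.486% in aly DCs (0.453% higher, 0.0333% lower). Arrays of treated WT DCs lay wholly above those of untreated WT DCs for 2 of the 5 genes, Sphk1 and Sgpl1, against 14.3% of all genes (and 22.1% wholly below). In aly DCs this held for Sphk1 alone, against 6.02% of all genes (and 8.56% below).

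Between genotypes Sphk1 was 1.40 ± 0.45 log2 units higher in untreated aly than in untreated WT DCs (2.64-fold, interval 0.45 to 2.35), which was not called. After treatment it was lower in aly DCs by 3.80-fold (-1.92 ± 0.45, interval -2.88 to -0.97), which was called. Of the 5 genes, 0 were called between untreated genotypes, where 0.553% of all genes were (0.499% higher in aly, 0.0533% lower). Between treated genotypes 1 was called, where 5.37% were (2.74% higher, 2.64% lower). Arrays did not overlap for Sphk1 and Sphk2 before treatment (2 of 5 higher in aly, against 12.9% of all genes, and 0 lower, against 9.86%). After treatment 1 was higher (Sphk2, against 14.1%) and 1 lower (Sphk1, against 10.1%). The response of Sphk1 in aly DCs differed from that in WT DCs by -3.32 ± 0.64 log2 units (interval -4.67 to -1.98). This difference was not called, where 0.153% of all genes were. It was called in only 3 of 9 other settings and in 1 of 12 omissions of an array. The settings were array weights (-3.25) and the replicate number or the split of replicate 1 from the others as a block (-3.32 in both). The omission was that of treated aly replicate 1 (-3.53).

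**Figure D1:**
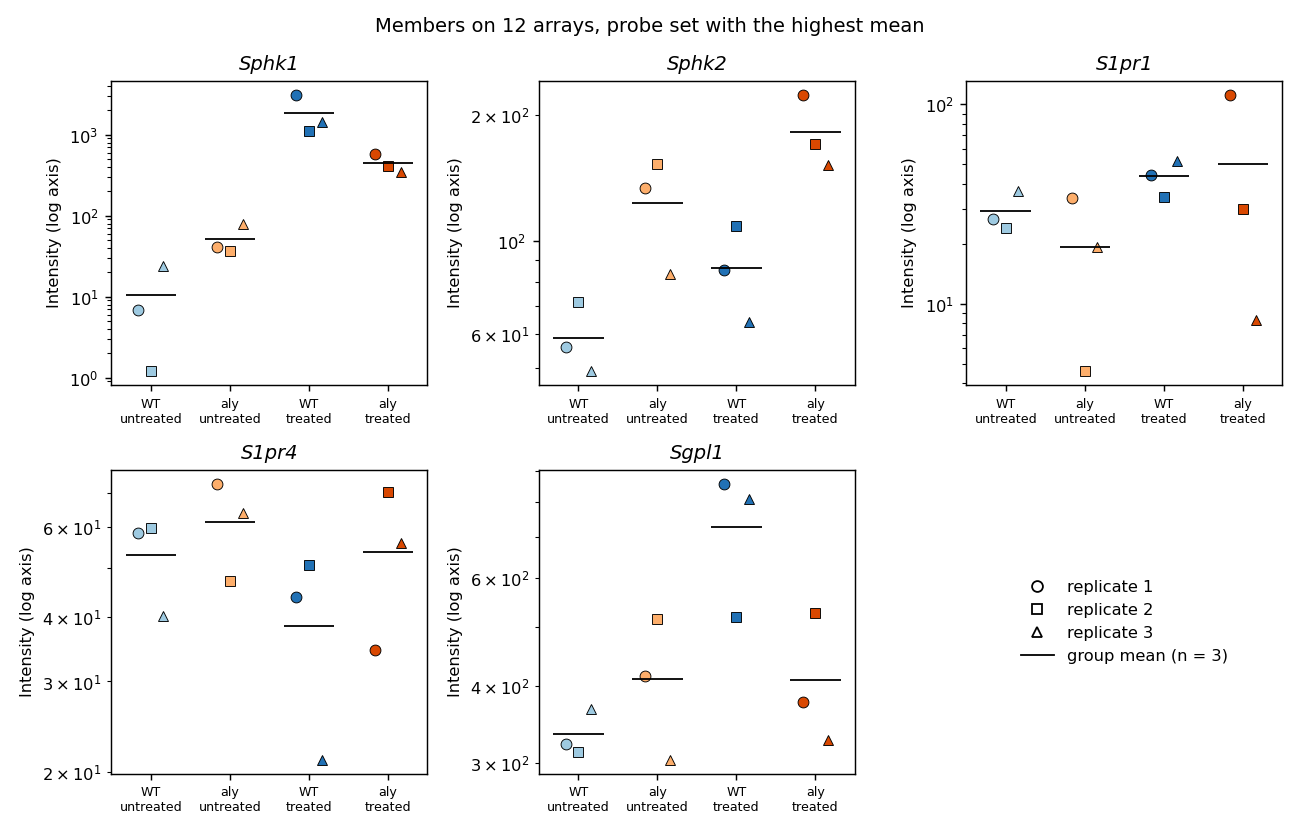
Intensity (log axis) of the 5 genes on each of the 12 arrays, at the probe set with the highest mean log2 value; points are arrays, with the replicate number as the symbol, and lines are means of 3 arrays. The 4 groups of Sphk1 do not overlap, with treated WT arrays at 1107 to 3107.3 and untreated WT arrays at 1.2 to 23.8, whereas all 4 groups of S1pr4 overlap one another.

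The order of Sphk1 differences was the same on replicate 1 arrays as on replicates 2 and 3. The WT response was 7.10 on replicate 1 and 5.60 on the others, the aly response 3.39 and 2.47, and the treated genotype difference -2.38 and -1.70. The aly response was not called without untreated aly replicate 1 or 2. The treated genotype difference was not called without treated WT replicate 1 or 3 or treated aly replicate 2, nor with an offset of 1. The WT response was called in each of the 12 fits that left out 1 array. Sphk1 lies on chromosome 11, as does Map3k14, with 139 measured genes between them in the RefSeq gene table, and the other 4 genes lie on chromosomes 3, 7 and 10. Whether alleles carried along with the aly mutation reach Sphk1 was not tested.

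**Figure D2:**
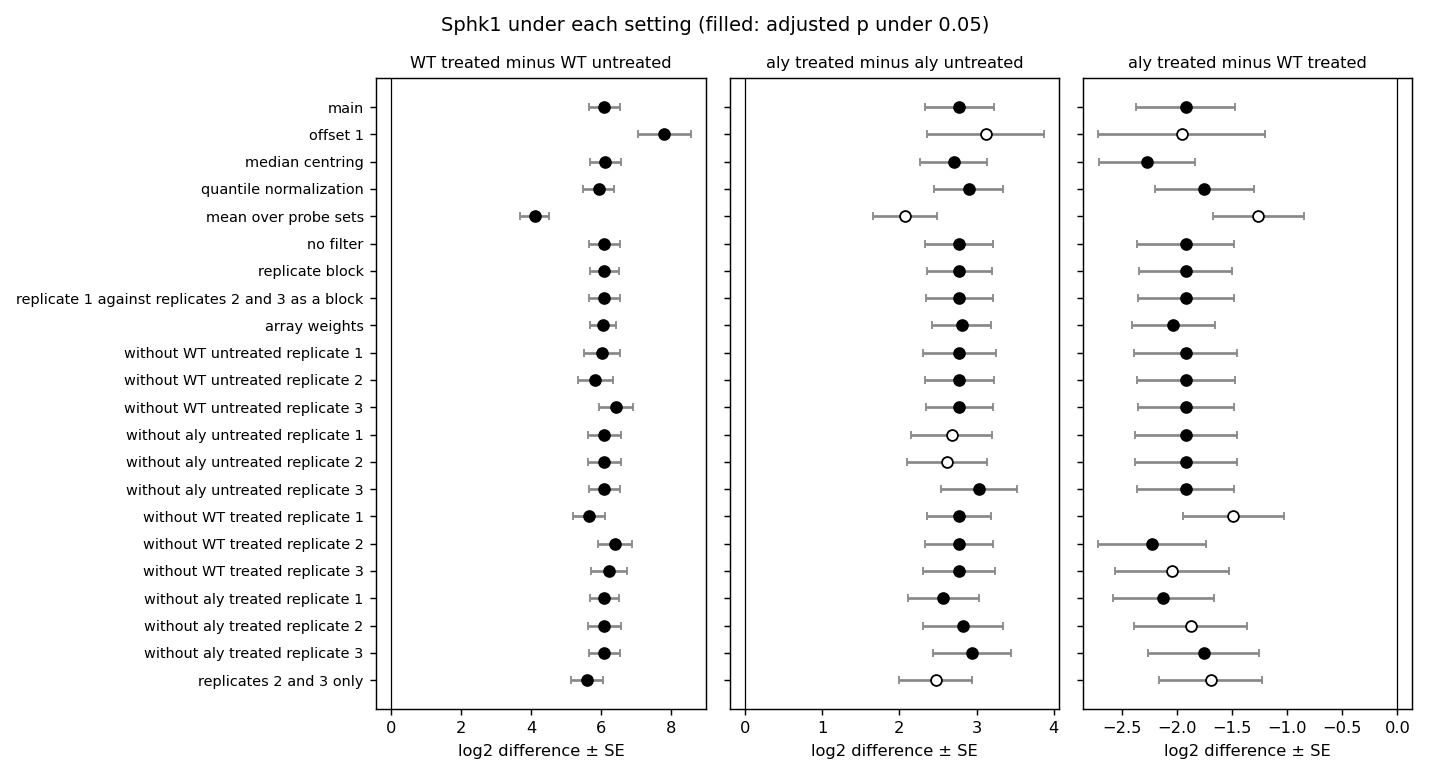
Log2 difference of Sphk1 with its standard error in 3 comparisons, as reported and under each other setting or omitted array; filled points were called at an adjusted p under 0.05. The WT response stays called throughout, between 4.10 and 7.82, while the other comparisons lose the call under several settings.

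The other Sphk1 probe set (1420566_at) was dimmer. It read 1.3, 39.2 and 2.7 in untreated WT, 1.1, 8.1 and 40.5 in untreated aly, 135.8, 80 and 80 in treated WT and 126.5, 28.7 and 46.2 in treated aly DCs. Here WT treated arrays again lay above all WT untreated arrays, but the genotypes overlapped in both conditions. Treatment differences were 2.10 ± 0.55 in WT and 1.36 in aly DCs, and genotype differences 0.13 before and -0.61 after treatment. With the mean of both probe sets the WT response was 4.10 and called, the aly response 2.07 and the treated genotype difference -1.27, neither called. The genotype order of untreated DCs and of treated DCs thus rests on the brighter probe set.

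**Figure D3:**
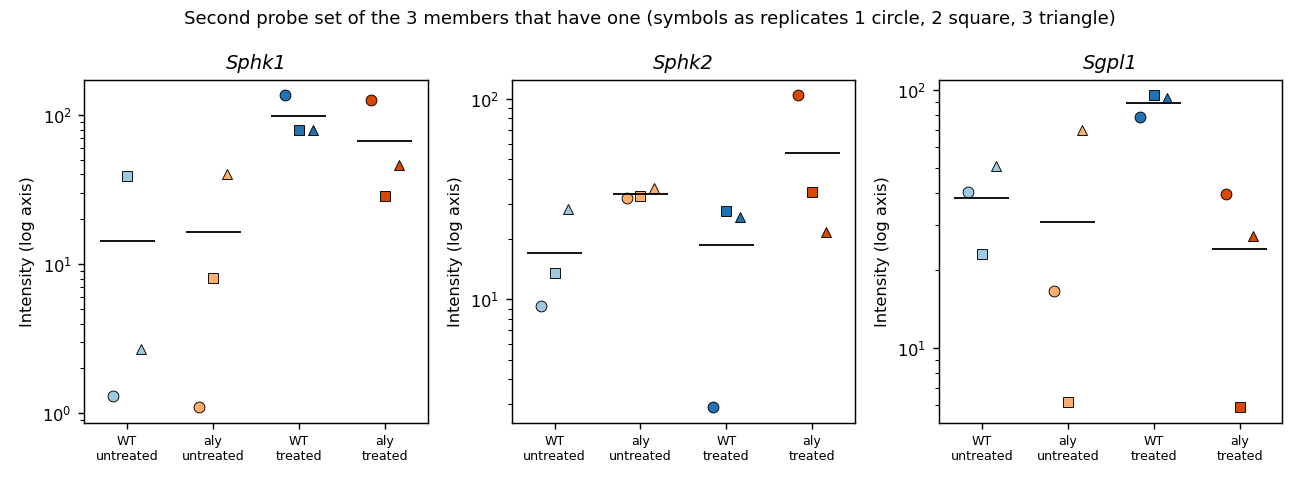
Intensity (log axis) of the dimmer probe set of Sphk1, Sphk2 and Sgpl1 on each array, with lines at means of 3 arrays. Treated WT arrays lie above untreated WT arrays for Sphk1 and for Sgpl1, and the highest value of all is 135.8.

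Sphk2, the second sphingosine kinase, which is found largely in the nucleus and at internal membranes, read higher in aly than in WT DCs before and after treatment. It read 56, 71.7 and 49 in untreated WT, 134, 152.3 and 83.6 in untreated aly, 85.3, 108.8 and 64.3 in treated WT and 222.8, 170.1 and 151.8 in treated aly DCs (1417431_a_at). Within each condition every aly array was above every WT array. The means were 58.9 ± 11.6 and 123.3 ± 35.6 before treatment and 86.1 ± 22.3 and 182 ± 36.9 after it (SD, n = 3). The genotype difference was 0.87 log2 units (interval 0.13 to 1.62) in untreated and 0.96 (0.21 to 1.70) in treated DCs, neither called, and it was called in treated DCs only with array weights (0.90). The treatment difference was 0.44 ± 0.35 in WT and 0.52 in aly DCs, with overlapping arrays in both. The responses of the genotypes differed by 0.09 ± 0.50.

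On replicate 1 the Sphk2 genotype difference was 1.06 untreated and 1.24 treated, and on replicates 2 and 3 it was 0.78 and 0.82. The other probe set (1426230_at) read 9.3, 13.6 and 28.2 in untreated WT against 32, 32.8 and 35.8 in untreated aly DCs, which do not overlap. After treatment it read 2.9, 27.5 and 25.9 in WT and 104.4, 34.5 and 21.8 in aly DCs, which do. Its genotype differences were 0.62 and 0.91. The 3' to 5' ratios and the red pulp macrophage markers given above were higher in aly DCs too, with 5 of 7 macrophage markers called higher before treatment and 3 of 7 after it. Erythroid markers (3 of 6 measured) summed to 12.1 to 166 in untreated WT and 685 to 1746 in untreated aly DCs, and to 15 to 333 and 453 to 2837 after treatment. Platelet markers (4 of 4 measured) summed to 82.4 to 259 and 268 to 704 before treatment, and to 147 to 458 and 417 to 1134 after it. Before treatment the gap came mostly from Pf4, with means of 62.5 in WT and 288 in aly DCs. Gp9 had a lower mean in untreated aly DCs (4.1, against 10 in WT). After treatment Ppbp had means of 57.6 in WT and 50.6 in aly DCs. Of the 4 platelet markers 0 were called between genotypes in either condition. Neutrophil markers (4 of 5 measured) had median genotype differences of 1.45 before and 1.84 after treatment, with overlapping sums and 0 called. NK cell markers (3 of 4 measured) summed to 2140 to 3157 in untreated WT and 1059 to 1323 in untreated aly DCs. Klrd1 made up most of this sum, with means of 2486 and 1125. Ncr1 (12.9 in WT and 24.1 in aly) and Nkg7 (24.3 and 60.4) had higher means in untreated aly DCs. The median difference of the 3 between untreated genotypes was 0.21, with 0 called. After treatment the NK cell sums overlapped. The part of these cells and of RNA quality in the Sphk2 difference was not tested.

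**Figure D4:**
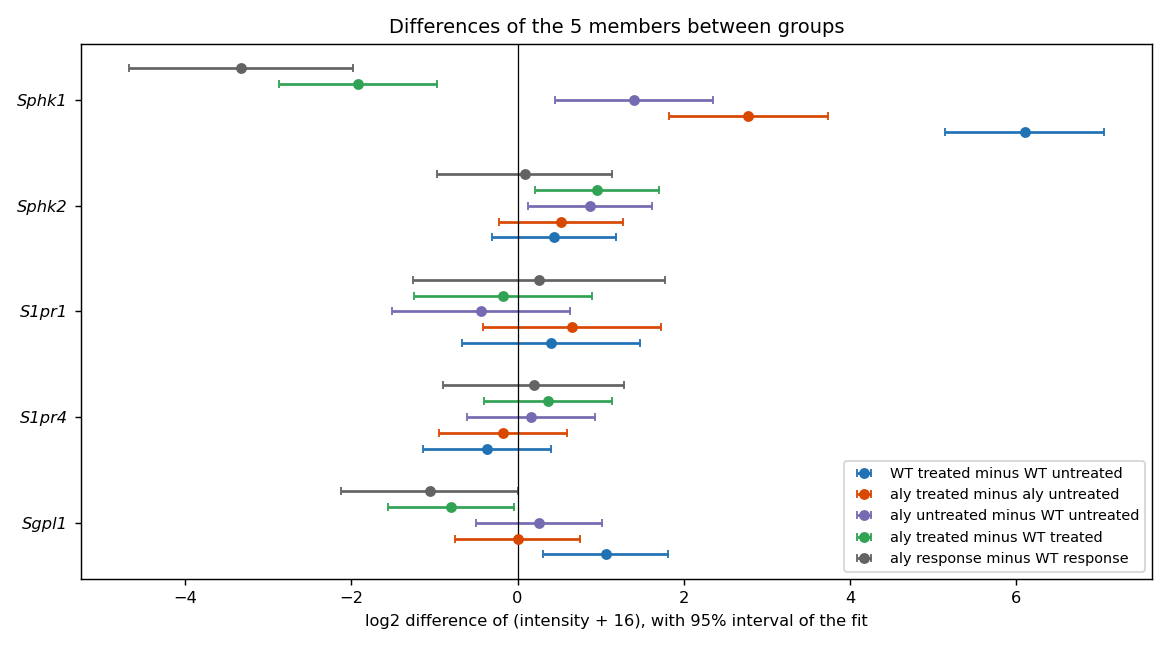
Log2 differences of the 5 genes in the 5 comparisons with 95% intervals of the fit. The Sphk1 intervals lie away from 0 in every comparison, the S1pr1 and S1pr4 intervals span 0 in every comparison, and the Sgpl1 interval of the WT treatment runs from 0.30 to 1.81.

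The arrays of neither receptor separated the groups in any comparison. S1pr1 read 26.5, 24.1 and 37 in untreated WT, 33.8, 4.6 and 19.4 in untreated aly, 44.3, 34.2 and 52.3 in treated WT and 111.7, 30 and 8.3 in treated aly DCs (1423571_at). The aly arrays spread more widely than the WT arrays, and treated aly replicate 1 was the highest of all. The group means were 29.2, 19.3, 43.6 and 50 in the order given, and the arrays of neighbouring groups in that ranking overlapped. The treatment difference was 0.40 ± 0.51 (interval -0.67 to 1.47) in WT and 0.66 (-0.41 to 1.73) in aly DCs. The genotype difference was -0.44 (-1.51 to 0.63) before and -0.18 (-1.25 to 0.89) after treatment. In treated DCs it was 1.08 on replicate 1 and -0.81 on replicates 2 and 3. Without treated aly replicate 1 the aly response was 0.01. Each of the 4 intervals holds differences of over 1 log2 unit.

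S1pr4 read 58.4, 59.8 and 40.3 in untreated WT, 72.9, 47.1 and 63.8 in untreated aly, 43.8, 50.7 and 21.1 in treated WT and 34.6, 70.3 and 55.8 in treated aly DCs (1451024_at). Treated WT replicate 3 was the lowest array, and all groups overlapped. The differences were -0.37 ± 0.36 for treatment in WT (interval -1.14 to 0.40), -0.17 in aly, 0.17 between untreated and 0.36 between treated genotypes. On replicate 1 the treated genotype difference was -0.24, and on replicates 2 and 3 it was 0.66.

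Of the 3 other S1P receptors, S1pr3, known from endothelium, heart and activated myeloid cells, rose with treatment in WT DCs. It read 45.7, 11.3 and 28.7 in untreated and 581.7, 194.6 and 170.6 in treated WT DCs, and 65, 55.3 and 111.2 in untreated and 298.7, 89.5 and 38.2 in treated aly DCs. The WT arrays did not overlap and the aly arrays did. The WT change was 2.76 ± 0.59 log2 units (6.78-fold, limma adjusted p = 0.0073, n = 3 per group), and without treated WT replicate 1 it missed the threshold (2.23, adjusted p = 0.052). The aly difference was 0.43 ± 0.59 (adjusted p = 0.77), with 1.96 on replicate 1 and -0.33 on replicates 2 and 3. The difference between the responses was -2.33 ± 0.83 and did not pass (adjusted p = 0.45). A second S1pr3 probe set gave 1.55 for the WT treatment (limma adjusted p = 0.055 over all probe sets) and -0.07 for the aly treatment. Its treated aly arrays lay below its treated WT arrays (-1.48, limma adjusted p = 0.081). The remaining probe set, with intensities of 0.8 to 17.9, did not pass the filter and was not tested.

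The summed intensity of 6 of 6 endothelial markers was 206 to 420 in untreated and 679 to 1458 in treated WT DCs, and 436 to 721 and 688 to 1390 in aly DCs. The higher sum in WT came from Kdr, with means of 83.6 and 1102.7, and the median difference of the 6 was -0.16. Kdr rose (3.39, adjusted p = 1.0e-04) and Vwf fell (-2.10, adjusted p = 0.017) with treatment in WT DCs. Cdh5, which defines endothelium, had means of 11.3 to 18.5 in the 4 groups, and the part of endothelial cells in the S1pr3 change was not tested. S1pr2, which couples to inhibition of migration, was not called (0.48 ± 0.42 for treatment in WT, adjusted p = 0.57), and its other probe set went the opposite way (-0.20). S1pr5 did not pass the filter, with intensities of 1.2 to 45.8.

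Sgpl1, the lyase, had its highest mean in treated WT DCs. It read 321.8, 312.2 and 368 in untreated WT, 415.4, 514.9 and 303.4 in untreated aly, 857, 519.4 and 808.2 in treated WT and 377.6, 526.8 and 326.5 in treated aly DCs (1415892_at). Treated WT arrays lay above untreated WT arrays, while treated WT replicate 2 lay within the range of treated aly arrays. The means were 334 ± 29.8, 411 ± 106, 728 ± 182 and 410 ± 104 (SD, n = 3). The difference with treatment was 1.06 ± 0.36 log2 units in WT (2.08-fold, interval 0.30 to 1.81) and 0.00 ± 0.36 in aly DCs. Neither was called. The WT difference was called in only 2 of 9 other settings, array weights and the mean of the probe sets. Of 12 omissions of an array it was called in 1, that of treated aly replicate 1.

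Between treated genotypes Sgpl1 was lower in aly DCs (-0.80, interval -1.55 to -0.04), and the responses differed by -1.06 ± 0.50 (interval -2.13 to 0.01), neither called. The other probe set (1415893_at) read 40.2, 23.2 and 50.6 in untreated WT, 16.7, 6.2 and 69.9 in untreated aly, 78.8, 95.4 and 92.8 in treated WT and 39.5, 5.9 and 27.2 in treated aly DCs. Here treated WT arrays lay above all others. Its differences were 0.99 for treatment in WT, -0.08 in aly, -0.41 between untreated and -1.48 between treated genotypes. With the mean of both probe sets the treated genotype difference was -1.14 and called. This was the only 1 of 9 other settings with a call, and 0 of 12 omissions of an array gave one. On replicate 1 the WT response was 1.37 and on replicates 2 and 3 it was 0.90.

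Of the 5 genes, the median treatment difference was 0.44 in WT and 0.52 in aly DCs, beside -0.12 and -0.08 over all genes. The median genotype difference was 0.26 before and -0.18 after treatment, beside 0.10 and 0.19 over all genes, and 0.09 for the responses beside 0.04. The arrays share a trimmed mean but not a median intensity. Why the medians over all genes were not at 0 was not tested.

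Beyond the 5 genes, 61 symbols of sphingolipid enzymes, transporters, receptors and coupling proteins were listed, of which 51 were measured. With treatment in WT DCs 3 rose and 3 fell, which is 6 of 51 beside 9.71% of all genes, with a median of -0.11. An unadjusted limma p under 0.05 was found for 14 (27.5%, beside 23.1% of all genes). In aly DCs 0 were called, beside 0.486%, and 10 (19.6%, beside 12.9%) had an unadjusted p under 0.05. Between untreated genotypes 0 were called, beside 0.553%, and 10 (19.6%, beside 10.5%) had such a p. Between treated genotypes 3 were called lower in aly DCs, beside 2.64% of all genes, and 0 higher, beside 2.74%. Here 15 (29.4%, beside 22.9%) had such a p. In the response 0 were called, beside 0.153%, and 3 (5.88%, beside 8.02%) had such a p.

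Of the genes that act on S1P after the kinases, 1 phosphatase fell in treated WT DCs. Plpp1, a lipid phosphate phosphatase at the cell surface, read 708, 258.2 and 630.3 in untreated and 161.8, 192 and 13.2 in treated WT DCs and fell by 2.30 ± 0.65 log2 units (4.92-fold, limma adjusted p = 0.034). The call was lost without untreated WT replicate 1 or 3 or treated WT replicate 3, with adjusted p up to 0.19, with an offset of 1 (0.10), with median centring (0.065) and on replicates 2 and 3 only (0.058). Without treated WT replicate 3 the change was -1.39. The other probe sets gave -2.56 (adjusted p = 0.047 over all probe sets) and -0.10 with overlap. Sgpp1, the S1P phosphatase of the endoplasmic reticulum, read 744.9, 681 and 430.6 in untreated and 87.4, 244.8 and 94.7 in treated WT DCs, without overlap. Its difference of -2.10 ± 0.70 missed the threshold (adjusted p = 0.069). Its other probe sets gave -2.56 and -1.48, both called among probe sets (adjusted p = 0.021 and 0.034). Treated aly arrays of Sgpp1 spread from 36.6 to 555. Sgpp2 did not pass the filter (0.4 to 24.1). Of the 6 genes of this list 5 were measured. With treatment 1 was called in WT, where 9.71% of all genes were, and 0 in aly DCs, where 0.486% were.

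Of the 5 listed export and carrier genes, 1 was called, between treated genotypes, where 5.37% of all genes were. Abcc1, a transporter that carries S1P among other substrates, read 985.2, 1109 and 1234.5 in treated WT and 218.4, 273.4 and 485.9 in treated aly DCs, which do not overlap. The difference was -1.79 ± 0.36 (3.46-fold, adjusted p = 0.012). It was lost without treated WT replicate 3 (adjusted p = 0.090) and with the mean over probe sets (0.070), and the other probe set gave -0.60 with overlap. Spns2, the S1P exporter of endothelium, had a WT treatment difference of -0.02 ± 0.42 (adjusted p = 0.99).

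Among the genes that make and use ceramide, the source of sphingosine, changes went both ways. Cers6, a ceramide synthase, read 209.5, 343.3 and 285.4 in untreated and 753.9, 720.8 and 1495.7 in treated WT DCs and rose 3.27-fold (1.71 ± 0.42, adjusted p = 0.016). In aly DCs it read 160.4, 121.5 and 183.8 before and 363.8, 135.8 and 220.4 after treatment. It was 3.98-fold lower in treated aly than in treated WT DCs (-1.99 ± 0.42, adjusted p = 0.014). Both Cers6 calls were lost without treated WT replicate 3 (adjusted p = 0.11 for each), the WT call also without untreated WT replicate 1 or 3, and the genotype call without treated aly replicate 2 and with an offset of 1 (0.052).

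Kdsr, which reduces the sphingoid base at an early step of ceramide synthesis, fell in WT DCs from 489.3, 157.3 and 243.3 to 30.6, 57.2 and 47.2. The change was -2.24 ± 0.48 (4.72-fold, adjusted p = 0.0072), with -1.11 and -1.73 at its other probe sets, and adjusted p = 0.051 without untreated WT replicate 1. Sgms1, which turns ceramide into sphingomyelin, fell from 1722.3, 856.1 and 1523.3 to 130, 220.3 and 117.5 in WT DCs (-2.99 ± 0.64, 7.97-fold, adjusted p = 0.0077), and its other probe sets gave -1.69, -1.56 and -0.78. With treatment in WT DCs, of 11 measured ceramide synthesis genes 1 rose and 1 fell, and of 9 sphingomyelin and glycosphingolipid enzymes 1 fell. Over all genes 4.95% were called higher and 4.75% lower. Of 5 ceramidases, which free sphingosine from ceramide, 0 were called. Asah1, the acid ceramidase, was lower on all treated arrays in both genotypes, by -1.17 in WT (adjusted p = 0.30) and -1.98 in aly DCs (adjusted p = 0.26).

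**Figure D5:**
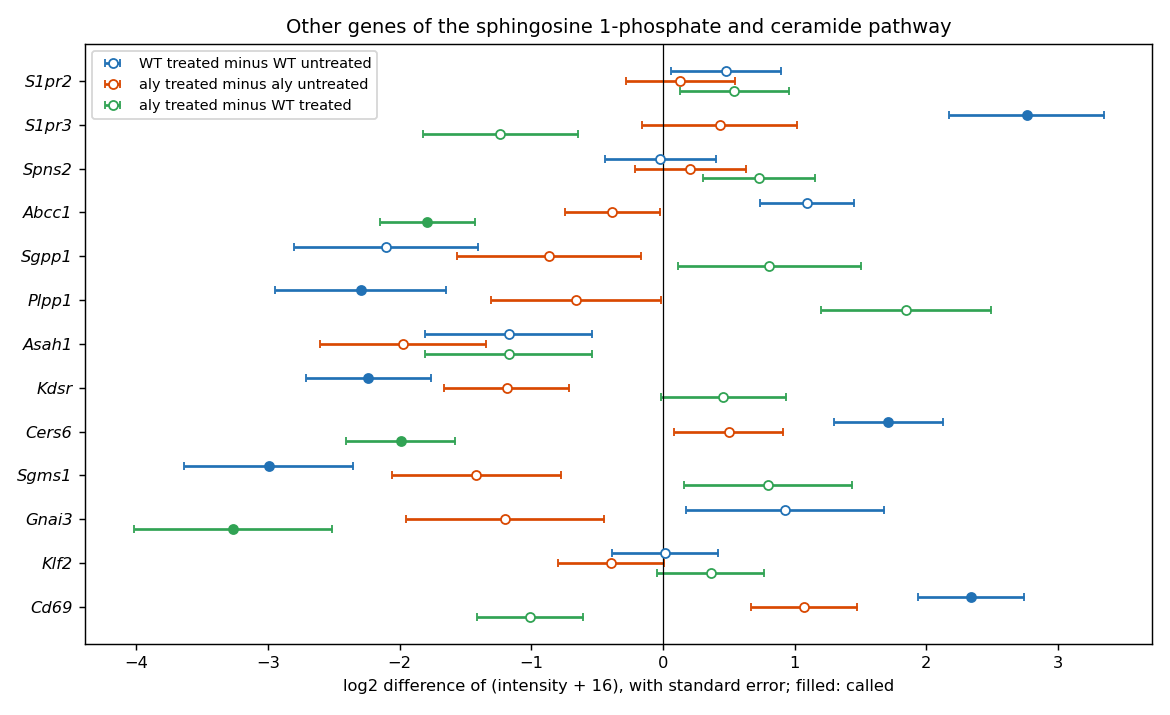
Log2 differences with standard errors of 13 other pathway genes in 3 comparisons, with filled points for those called over all genes. S1pr3, Cers6 and Cd69 are filled above 0 and Plpp1, Kdsr and Sgms1 below 0 for the WT treatment, and Abcc1, Cers6 and Gnai3 are filled below 0 for aly against WT after treatment.

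Among 14 measured genes of receptor coupling and control, Cd69, whose protein binds S1pr1 and removes it from the cell surface, rose in WT DCs. It read 55, 24.8 and 65.8 in untreated and 496.6, 210.2 and 249.8 in treated WT DCs (2.34 ± 0.40, 5.07-fold, adjusted p = 0.0015). In aly DCs it read 41, 62.8 and 75 before and 169.7, 130.3 and 123.4 after treatment (1.07 ± 0.40, adjusted p = 0.32). Arrays did not overlap in either genotype, nor between treated genotypes (-1.01 ± 0.40, adjusted p = 0.15). Gnai3, an inhibitory G protein subunit, was lower in treated aly DCs, at 98, 1076.2 and 1732.1 against 5817.7, 4372.9 and 7577.7 in WT (-3.27 ± 0.75, 9.63-fold, adjusted p = 0.021). The lowest value is that of treated aly replicate 1, the array with the highest 3' to 5' ratio. Without it the difference was -2.07 (adjusted p = 0.016), and without treated aly replicate 3 it was -4.04. The Gnai3 call was lost without treated WT replicate 1 or 3 (adjusted p = 0.053 and 0.13) and with an offset of 1 (0.080), and the other probe set gave -0.93. Klf2, a transcription factor that drives S1pr1 in lymphocytes, had a WT treatment difference of 0.02 ± 0.40 (adjusted p = 0.99).

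Genes whose pattern was most like that of each of the 5 were found by Pearson correlation of log2(intensity + 16) over the 12 arrays, which share the 4 groups and the array qualities above. Nearest to Sphk1 were Glipr2 (r = 0.989), Cfb, the complement factor B gene (0.979), Ramp3 (0.973), Ube2l6 (0.971) and Fbxw17 (0.969). Many genes share this pattern, with 149 of 15018 others at r over 0.9. Glipr2 had means of 34.7, 77.2, 1676.3 and 495 in untreated WT, untreated aly, treated WT and treated aly DCs, the same order of groups as Sphk1.

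Nearest to Sphk2 were Arrb2, the beta-arrestin 2 gene (r = 0.962), Calr (0.944) and Akt1s1 (0.932), with 12 other genes over 0.9. Arrb2 had means of 382 and 1072.5 in untreated and 738 and 1772.7 in treated WT and aly DCs, and its genotype differences of 1.42 and 1.19 were not called (adjusted p = 0.16 and 0.098). Nearest to Sgpl1 were Rassf3 (0.936), Arhgef40 (0.921) and C1qtnf12 (0.914), with 8 genes over 0.9. For S1pr1 they were Cyp11a1 (0.908), A930009A15Rik (0.884) and Msln (0.882), which were 0.842, 0.791 and 0.817 without treated aly replicate 1. For S1pr4 they were Pgp (0.895), Gcsh (0.893) and Habp4 (0.878), and 0 genes were over 0.9. Among the 5 genes themselves, r was 0.74 between Sphk1 and Sgpl1 and 0.30 between Sphk1 and Sphk2.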

How the data were processed

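Biotin-labelled RNA, amplified in 2 rounds per the labels' protocols, was hybridised to Affymetrix mouse arrays. The deposited values are 1 intensity per probe set and array on a linear scale. Their 2% trimmed mean was 150.001 on every array, so the arrays had been scaled before deposit. Neither the software nor its background step is given in the sources used here. Of 45101 probe sets, 34958 carried 1 gene symbol. A probe set had to exceed the 40th percentile of intensities on 3 or more arrays (34205 did), and the one with the highest mean log2 value stood for its gene (15019 genes). Values were used as log2(intensity + 16). limma 3.58.1 (R 4.3.3, and data.table in version 1.17.8) was fitted to all 12 arrays with 1 mean per group (8 residual and 8.04 prior degrees of freedom). It gave 5 contrasts: treatment in each genotype, genotype in each condition, and the difference between responses. Calls were made at adjusted p under 0.05, with Benjamini-Hochberg adjustment over all genes of a contrast. Fold changes come from log2 differences, and the offset understates those of low values. Adjusted p-values of single probe sets are over all filtered probe sets.

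Calls were checked on simulated data, drawn as independent normal values with each gene's own spread. Sets of 50 genes were changed on the treated WT arrays. Of those changed by 1 log2 unit 2% were called, by 2 units 50%, by 4 units 98% and by 6 units 100%. False calls were 3 of 128. In the simulated data a change of 1 log2 unit was thus mostly missed. All other genes were simulated with no difference between groups, so 128 genes were called, against 1458 for the WT treatment on the arrays. The adjusted threshold depends on that number, so the shares recovered do not carry over to the arrays. Differences of quality between arrays were not simulated. The labels do not say whether pools were independent of one another beyond the mice pooled, so p-values reflect how pools, not single mice, varied. The number of arrays limits the precision. The genes named are the 5 members, pathway genes called in any contrast or listed always (S1pr2, S1pr3, S1pr5, Spns2, Sgpp1, Sgpp2, Asah1, Cd69, Klf2), and for each member the 3 genes most like it (5 for Sphk1). Arrb2 values, Kdr, Vwf, Cdh5, H2-Ab1, Cd74, Irf4 and Ciita were picked after their values were seen. Members and lists were chosen with earlier results of these data known. Alternatives were an offset of 1, median centring, quantile normalization, the mean over probe sets, no filter, replicate and batch blocks, array weights and leaving out each array. A fit to replicates 2 and 3 only was added after seeing the data.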

Additional observations from a re-analysis of the deposited data

How the results depend on the processing

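The direction of each difference of the 5 genes that was called was the same under all alternatives. For Sphk1 an offset of 1 gave 7.82 for the WT treatment, 2.74 between untreated genotypes and -4.70 between the responses, and the mean over probe sets gave 4.10, 0.76 and -2.03, with 2.07 for the aly treatment and -1.27 between treated genotypes. Between treated genotypes, median centring gave 0.61 for Sphk2, 0.011 for S1pr4 and -1.15 for Sgpl1, and quantile normalization 0.0023 for S1pr4. The S1pr4 difference between responses was 0.56 with array weights and 0.54 on replicates 2 and 3 only. The mean over probe sets of Sgpl1 gave -0.076 between untreated and -1.14 between treated genotypes, the latter called. Pathway genes called numbered 6, 0, 0, 3 and 0 (treatment in WT, in aly, genotype untreated, genotype treated, responses). Array weights gave 19, 0, 7, 21 and 3. Replicates 2 and 3 only gave 3 between untreated and 8 between treated genotypes, and an offset of 1 gave 1 between treated genotypes. Leaving out 1 array gave 3 to 17, 0 to 1, 0 to 6, 0 to 10 and 0 to 2. Without treated aly replicate 1 these counts were 17, 0, 6, 10 and 2. The others beyond 1.5 times came without untreated WT replicate 1 (3 for the WT treatment and 1 between untreated genotypes), treated aly replicate 2 (1 in aly), treated WT replicate 3 (0) and treated aly replicate 3 (7 between treated genotypes). Over all genes the other settings ranged from 893 to 3370, 11 to 164, 0 to 617, 231 to 2886 and 1 to 360 calls, and the omissions from 587 to 2843, 13 to 102, 0 to 396, 81 to 1544 and 1 to 113, against 1458, 73, 83, 807 and 23. The causes were not tested.

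Equal replicate numbers are not stated to mark a shared day or litter. Deviations of same-numbered arrays correlated at -0.03 to 0.30, over 0.1 in 8 of 18 pairs. Arrays of unlike numbers were not compared, so these correlations do not decide whether the numbers mark pairs. The main fit did not take them as pairs. Between the untreated genotypes all 3 were over 0.1 (0.16, 0.23 and 0.18). In this balanced design a replicate block cannot move an estimate, only its error. With it the Sphk1 difference between responses (-3.32) was called, pathway calls were 8, 0, 0, 4 and 0, and calls over all genes between untreated genotypes went from 83 to 133.

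Intensities near or under 16, as most of those of Sphk1 in untreated WT DCs and some of the dimmer probe sets and of S1pr1 in aly DCs, carry little information on fold size.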
